A study of Mus musculus with 9 samples.

Results

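Islet endocrine cells of every hormone type share a set of transcription factors, and 9 of their genes are described here: Pax6, Neurod1, Isl1, Nkx2-2, Rfx6, Rfx3, Insm1, Myt1 and St18. The rule takes these symbols and uses no measured value, although the list was drawn up with earlier results of these data known, and each symbol matched a single row among the 33212 rows of the gene count table. All 9 were well above the filter on low counts, with at least 586 counts in every library. The libraries were made from poly-A RNA of αTC1 cells, a glucagon-producing line derived from a mouse pancreatic alpha cell tumour. Cells had been kept for 7 days either with the solvent DMSO (5 libraries) or with EPZ011989 at 4 µM (4 libraries). Both groups were grown in low-glucose medium. EPZ011989 is an inhibitor of EZH2, the enzyme of Polycomb repressive complex PRC2 that methylates lysine 27 of histone H3. The labels call the libraries biological replicates without saying that each had its own culture; the tests can therefore speak only of library-to-library spread.

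These factors act at successive steps of islet cell formation and then stay on in mature cells. Neurod1, Insm1 and Myt1 are switched on in or after the progenitor stage marked by Neurog3. Pax6, Isl1, Neurod1 and Nkx2-2 bind hormone gene control regions in finished alpha and beta cells. PRC2 typically sits at CpG-rich start regions of silent developmental genes, and the members are developmental genes that alpha cells keep active.

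Library depth ran from 60274140 to 74651782 counts. The defining alpha cell genes were present, with the 8 alpha cell markers summing to 24143 to 26546 CPM (counts scaled to a common library total) in DMSO and 19842 to 27081 CPM with EPZ011989. Of 7 beta cell markers, Ins1, Pdx1 and Ucn3 were at 0 in all 9 libraries. Of the 4 tested, 3 were called higher (Ins2, Mafa and Iapp). The sum of the 7 ran from 38.3 to 43.5 CPM in DMSO and from 44.3 to 56.8 CPM with EPZ011989. Most of it was Nkx6-1, which was not called (mean 39.9 CPM in DMSO and 44.3 CPM with EPZ011989). The summed level of 10 fibroblast and stellate cell markers was 7.31 to 10.2 CPM in DMSO and 32.8 to 43.8 CPM with EPZ011989. Most of it was Pdgfra (mean 7.29 CPM in DMSO and 27.6 CPM with EPZ011989). Of 6 tested markers 5 were higher. Dcn, Lum, Acta2 and Col3a1 were at 0 in every DMSO library and at most at 0.490 CPM in a treated one. Of 7 neuron markers, 3 were higher and 0 lower, and their sum ran from 447 to 484 CPM in DMSO and from 400 to 501 CPM with EPZ011989. Tested markers called higher were also 2 of 8 for alpha, 1 of 2 for delta, PP and epsilon and 1 of 2 for progenitor cells. The same held for 1 of 2 endothelial and 1 of 3 macrophage and leukocyte markers. Of acinar markers 1 of 1 was lower, and of ductal markers 1 of 3. Over all tested genes 16.2% were called higher and 7.96% lower. Markers at or near 0 in DMSO, such as Thy1, Pdgfrb, Vim and Iapp, could be tested only because treated libraries had counts, which favours rises in these tallies. The part of these markers in the results below was not tested. In bulk RNA, fewer cells that express a gene and less of its RNA per cell cannot be told apart.

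EPZ011989 changed the members unequally. Rfx6 fell to 0.408 times its DMSO level, Isl1 rose 1.24-fold and Nkx2-2 rose 1.17-fold, while Pax6, Neurod1, Insm1, Rfx3, Myt1 and St18 did not pass the test (edgeR quasi-likelihood test, Benjamini-Hochberg adjustment over 14754 genes, calls at an adjusted p under 0.05). Thus 2 of the 9 were called higher and 1 lower, against 16.2% of all tested genes called higher and 7.96% called lower. The groups did not overlap for Isl1, which was higher with EPZ011989, and for Rfx6, which was lower, against 16.1% and 8.77% of all tested genes in these directions. The median log2 fold change of the 9 was 0.22, beside 0.03 over all genes tested. With upper-quartile scaling the calls over all genes were 2735 higher and 776 lower in place of 2388 and 1174, the median over all genes was 0.08, and 3 members were higher, with Myt1 the added one.

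**Figure D1:**
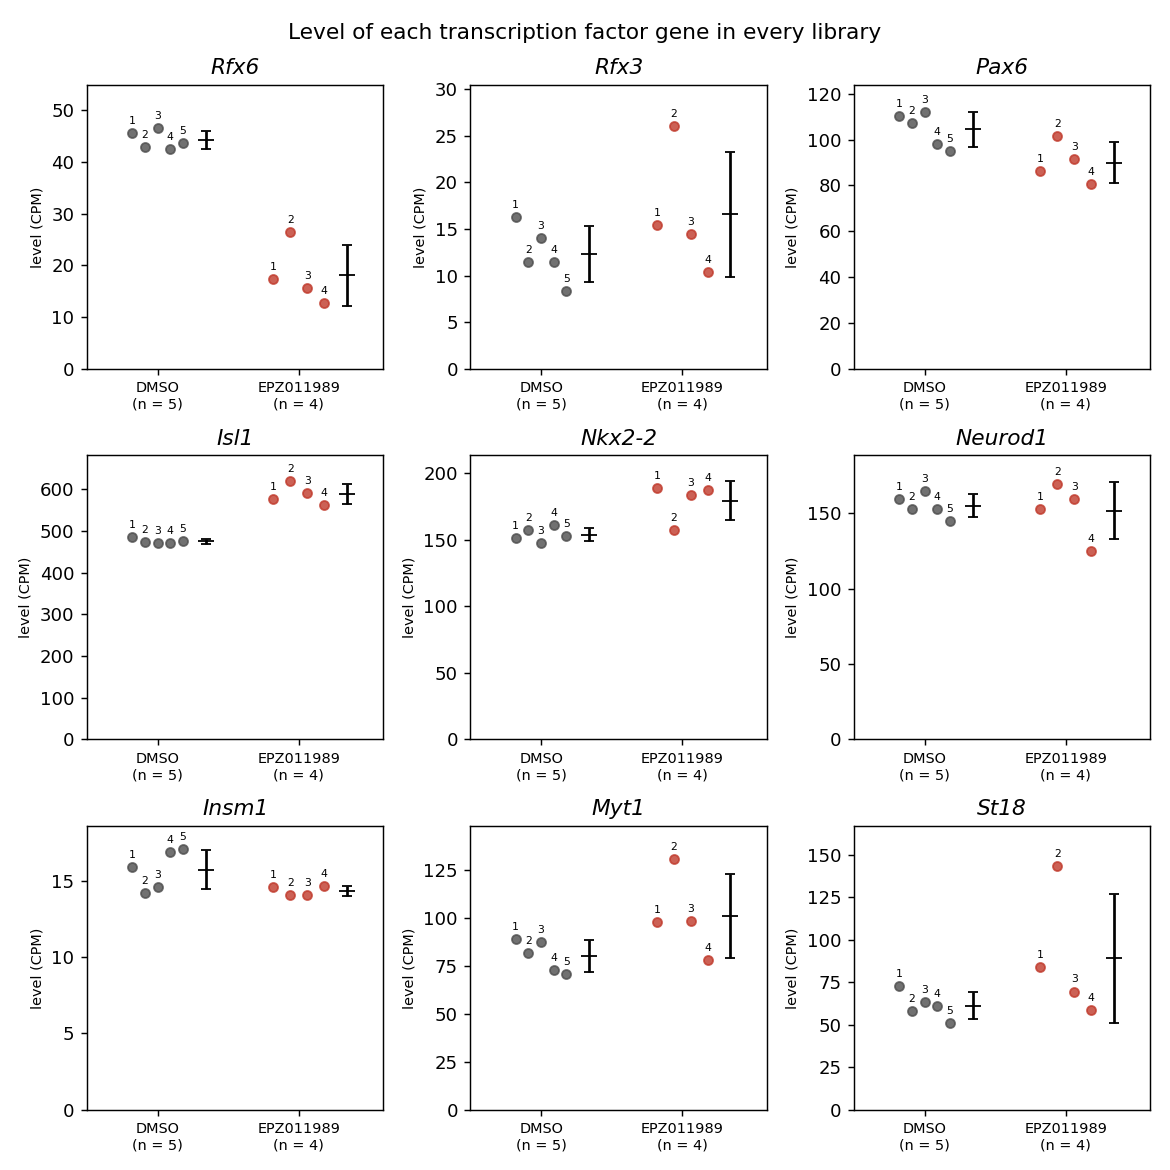
Level in CPM (vertical axes, from 0) of each of the 9 genes in the 5 DMSO libraries (grey) and the 4 EPZ011989 libraries (red), numbered by replicate, with bars for mean ± SD. Every EPZ011989 library lies below every DMSO library for Rfx6 and above for Isl1, and EPZ011989 replicate 2 is the highest point for Rfx3, Myt1, St18, Neurod1 and Isl1.

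Start regions of the called members differed in base content. The RefSeq table (GRCm38.p6, the assembly also called mm10) held 10 start windows of 300 bases for 7 of the 9 members, running from 250 bases before to 50 after a transcript start. Insm1 and St18 were not matched. The windows of the 3 called members are shown because they span the range from very few to many CG dinucleotides, here in capitals, 5′ to 3′ on the gene's strand. They are Rfx6 at chr10:51685268-51685567 (plus strand), Isl1 at chr13:116309639-116309938 (minus strand) and Nkx2-2 at chr2:147186353-147186652 (minus strand).
Rfx6: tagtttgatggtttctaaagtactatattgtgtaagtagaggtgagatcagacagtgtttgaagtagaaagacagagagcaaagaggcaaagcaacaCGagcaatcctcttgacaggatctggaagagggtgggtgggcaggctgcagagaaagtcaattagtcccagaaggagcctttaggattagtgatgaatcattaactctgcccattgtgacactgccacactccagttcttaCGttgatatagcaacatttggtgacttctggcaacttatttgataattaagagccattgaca
Isl1: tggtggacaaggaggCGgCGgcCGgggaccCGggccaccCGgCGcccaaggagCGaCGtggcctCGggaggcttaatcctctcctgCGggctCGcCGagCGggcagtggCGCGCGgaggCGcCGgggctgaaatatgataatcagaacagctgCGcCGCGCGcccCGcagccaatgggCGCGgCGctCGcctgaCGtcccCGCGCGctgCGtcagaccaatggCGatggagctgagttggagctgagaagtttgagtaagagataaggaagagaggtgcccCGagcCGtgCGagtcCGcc
Nkx2-2: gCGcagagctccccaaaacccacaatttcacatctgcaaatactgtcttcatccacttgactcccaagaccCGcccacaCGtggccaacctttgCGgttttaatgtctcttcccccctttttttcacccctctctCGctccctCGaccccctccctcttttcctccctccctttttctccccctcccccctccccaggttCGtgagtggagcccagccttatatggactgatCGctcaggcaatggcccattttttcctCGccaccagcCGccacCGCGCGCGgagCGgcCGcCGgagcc

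The Rfx6 window held 2 CG dinucleotides, more than in 14.1% of the 32841 windows of the table. The Isl1 window held 37, more than in 94.4%, and the Nkx2-2 window 17, more than in 68.6%. The other members ranged from 1 or 2 in the 3 Myt1 windows to 31 in that of Rfx3, with 26 in Neurod1 and 18 and 16 in the 2 Pax6 windows. Low CG content was thus shared by Rfx6, which fell, and Myt1, which did not pass. The Rfx6 window lies inside the gene's span in GENCODE M21, which begins upstream at base 51677756. Likewise the Nkx2-2 window lies inside its gene, whose span on the minus strand begins upstream at base 147194243.

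RFX proteins bind the X-box, an inverted repeat whose half-site contains GCAAC. Searched on both strands (GCAAC or GTTGC), the half-site occurred 3 times in the Rfx6 window and 2 times in that of Rfx3. At least 1 copy was found in 35.2% of all windows, at least 2 in 7.95% and at least 3 in 1.40%. Neurod1 also had 2, Pax6 had 1 in its first window and Myt1 had 1 in its first. The stretches with both Rfx3 copies and the last 2 of Rfx6 are shown with the half-sites in capitals, Rfx6 at chr10:51685506-51685550 (plus strand) and Rfx3 at chr19:28011121-28011151 (minus strand). A match is a description of the letters only, and full X-boxes were not searched for. The Rfx6 copies shown run in the same direction, and in Rfx3 GCAAC comes before GTTGC. Neither stretch is called an X-box here.
Rfx6: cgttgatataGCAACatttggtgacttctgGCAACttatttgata
Rfx3: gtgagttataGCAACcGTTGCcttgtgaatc

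The 2 RFX members, winged-helix factors, responded differently. Rfx6 (chromosome 10, 51677756 to 51730432) directs islet cell formation from gut endoderm and maintains secretion genes in mature islet cells. It was at 45.6, 42.9, 46.6, 42.5 and 43.6 CPM in DMSO replicates 1 to 5, and at 17.4, 26.3, 15.7 and 12.7 CPM in EPZ011989 replicates 1 to 4. The DMSO libraries were tightly grouped, with an SD of 4.01% of the mean, whereas the SD was 32.5% of the mean with EPZ011989, and the highest treated library was still far below the lowest control. The log2 fold change was -1.29 ± 0.18 (SE; 95% interval -1.68 to -0.91; adjusted p = 3.33e-04, edgeR quasi-likelihood test). Without EPZ011989 replicate 2 it was -1.54.

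Rfx3 (chromosome 19, 27761721 to 28011166) controls cilium assembly genes and takes part in endocrine differentiation. Its levels were 16.2, 11.4, 14.1, 11.5 and 8.37 CPM in DMSO and 15.5, 26.1, 14.5 and 10.4 CPM with EPZ011989. The groups overlapped, and only EPZ011989 replicate 2 stood above every DMSO library. The log2 fold change of 0.43 ± 0.25 (SE) did not pass (95% interval -0.13 to 0.99; adjusted p = 0.266, edgeR), and without that library it was 0.12.

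Because a ratio inside 1 library does not depend on scaling between libraries, 4 ratios of members were compared as well. Such a ratio can still vary with the length trend of a library, described below, where the 2 members differ in length. Rfx6 counts stood to Rfx3 counts as 2.81, 3.76, 3.31, 3.71 and 5.21 to 1 in DMSO replicates 1 to 5. With EPZ011989 they stood as 1.13, 1.01, 1.08 and 1.23 to 1. The ratio was thus lower in every treated library, including replicate 2, and varied less there. The log2 difference was -1.73 (exact two-sided permutation test over the 9 libraries, p = 0.00794, the smallest it can give, adjusted p = 0.0159 over 4 ratios).

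**Figure D2:**
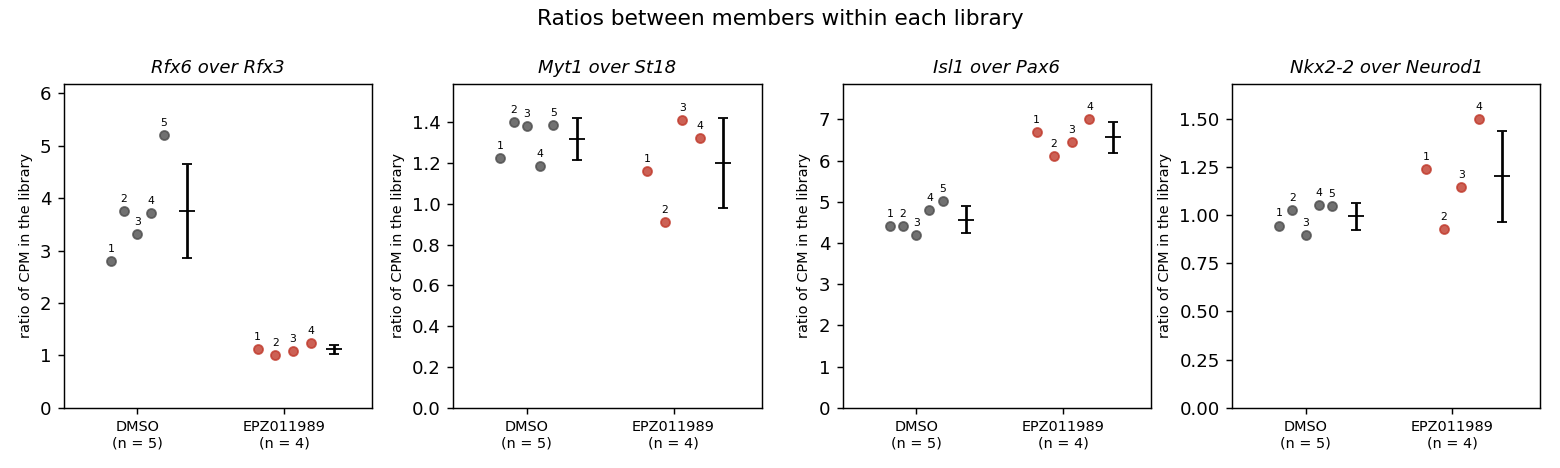
Ratio of the CPM of a pair of members in each library (vertical axes, from 0) for DMSO (grey) and EPZ011989 (red), numbered by replicate, with mean ± SD. Rfx6 over Rfx3 lies between 2.81 and 5.21 in DMSO and between 1.01 and 1.23 with EPZ011989, and Isl1 over Pax6 lies between 4.20 and 5.01 and between 6.12 and 7.00, while the other pairs overlap.

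Among the homeodomain members, Isl1 rose and Pax6 did not pass. Isl1 (chromosome 13, 116298281 to 116309689), a LIM homeodomain factor needed to expand and mature islet cells, had the smallest spread of the 9 in DMSO, at 1.40% of its mean. It was at 486, 473, 471, 471 and 475 CPM in DMSO and at 578, 620, 592 and 563 CPM with EPZ011989. The lowest treated library was above the highest control. The log2 fold change was 0.31 ± 0.06 (SE; 95% interval 0.18 to 0.43; adjusted p = 0.00236 in edgeR).

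Nkx2-2 (chromosome 2, 147177546 to 147194243), a homeodomain factor that sets islet cell fate through Groucho/TLE corepressors, was at 151, 157, 148, 161 and 152 CPM in DMSO. With EPZ011989 it was at 189, 157, 183 and 187 CPM. Replicate 2 lay within the DMSO range and the other 3 above it. On the log2 scale the rise was 0.22 ± 0.07 (SE; 95% interval 0.07 to 0.37; adjusted p = 0.0369 in edgeR). This call was lost in 13 of 21 alternative fits, in which the adjusted p ranged from 0.00119 to 0.215, although the direction was the same in all of them. Leaving out any single library other than EPZ011989 replicate 2 was enough to lose it. The antisense gene Nkx2-2os shares 278 exonic bases with Nkx2-2 and was at a mean of 0.034 CPM in DMSO and 0.030 CPM with EPZ011989, too low to be tested.

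Pax6 (chromosome 2, 105668900 to 105697364), a paired-box factor that activates the glucagon and insulin genes, was at 110, 107, 112, 98.2 and 94.8 CPM in DMSO. With EPZ011989 it was at 86.4, 101.4, 91.6 and 80.4 CPM. Replicate 2 was the only treated library inside the DMSO range. Its log2 fold change of -0.22 ± 0.08 (SE; 95% interval -0.40 to -0.03) had an adjusted p = 0.0869 in edgeR, and it passed as lower without EPZ011989 replicate 2 (-0.29, adjusted p = 0.0113) or without DMSO replicate 5 (-0.27, adjusted p = 0.0439). Its antisense gene Pax6os1, which shares no exonic base with it in GENCODE M21, rose from 0.182 ± 0.090 (SD, n = 5) to 0.618 ± 0.327 CPM (SD, n = 4).

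Isl1 rose relative to Pax6. The ratio of their counts was 4.41, 4.41, 4.20, 4.79 and 5.01 in DMSO and 6.69, 6.12, 6.46 and 7.00 with EPZ011989, with no overlap. The log2 difference was 0.53 (exact permutation p = 0.00794, adjusted p = 0.0159 over 4 ratios).

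Neurod1 (chromosome 2, 79452521 to 79456751), a basic helix-loop-helix factor that activates hormone and secretion genes, was at 160, 153, 165, 153 and 145 CPM in DMSO. It was at 153, 170, 160 and 125 CPM with EPZ011989, so that treated libraries lay both above and below the control range. Its log2 fold change was -0.030 ± 0.087 (SE; 95% interval -0.22 to 0.16; adjusted p = 0.857, edgeR), and the sign turned with upper-quartile factors or library size alone. Nkx2-2 over Neurod1 ran from 0.895 to 1.05 in DMSO and from 0.926 to 1.497 with EPZ011989 (log2 difference 0.26, exact permutation p = 0.0952, adjusted p = 0.127). Without EPZ011989 replicate 2 that difference was 0.37, with adjusted p = 0.0238 in the exact permutation test.

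Insm1 (chromosome 2, 146221921 to 146225020) is a zinc finger factor that promotes exit of endocrine precursors from the cell cycle. It was at 15.9, 14.2, 14.6, 16.9 and 17.1 CPM in DMSO and at 14.6, 14.0, 14.1 and 14.7 CPM with EPZ011989. The treated libraries agreed closely; replicates 2 and 3 lay just below the lowest control and replicates 1 and 4 within the control range. The log2 fold change was -0.13 ± 0.08 (SE; 95% interval -0.32 to 0.05; adjusted p = 0.296, edgeR).

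Myt1 and St18 are paralogous zinc finger factors; Myt1 promotes endocrine differentiation downstream of Neurog3, and both are expressed in islets and neurons. Myt1 (chromosome 2, 181763332 to 181827797) was at 88.8, 81.4, 87.4, 72.5 and 70.7 CPM in DMSO. With EPZ011989 it was at 97.5, 130, 98.3 and 77.7 CPM. Replicates 1 to 3 were above every control, and replicate 4 was inside the control range. Its log2 fold change was 0.33 ± 0.13 (SE; 95% interval 0.04 to 0.63; adjusted p = 0.101 in edgeR), and it passed without replicate 4 (0.42, adjusted p = 0.0187). Without replicate 2 the value was 0.18, with an adjusted p of 0.200 in edgeR.

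St18 (chromosome 1, 6487231 to 6860940) was at 72.5, 58.0, 63.1, 61.2 and 50.9 CPM in DMSO. With EPZ011989 it was at 84.0, 143, 69.5 and 58.7 CPM. Replicate 2 stood far above the others, and replicates 3 and 4 were inside the control range. Its log2 fold change was 0.54 ± 0.22 (SE; 95% interval 0.05 to 1.03; adjusted p = 0.108 in edgeR). It was 0.20 without replicate 2 and 0.67 without replicate 4, where it passed (adjusted p = 0.0279). Myt1 over St18 ran from 1.19 to 1.40 in DMSO and from 0.909 to 1.41 with EPZ011989, and the log2 difference of -0.15 did not pass (exact permutation p = 0.341, adjusted p = 0.341). It was -0.021 without EPZ011989 replicate 2.

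**Figure D3:**
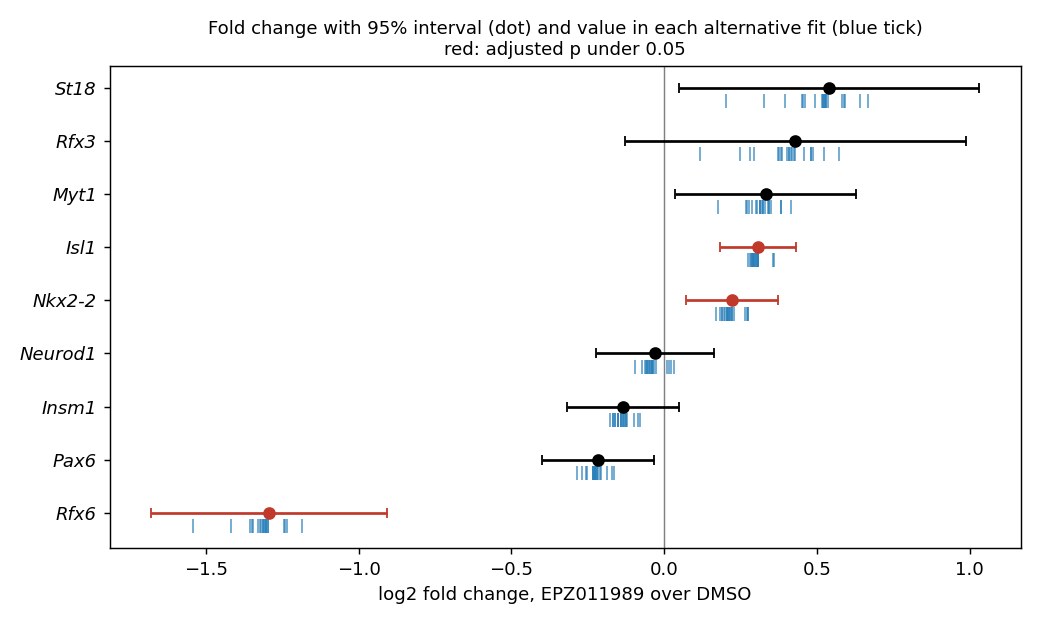
Log2 fold change of EPZ011989 over DMSO (horizontal axis) for the 9 genes, with 95% intervals around the reported value (red where called, black otherwise) and a blue tick for each alternative fit. Rfx6 lies at -1.29 with all ticks between -1.54 and -1.18, and the ticks of Neurod1 fall on both sides of 0.

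Between libraries of the same group, several members moved together, and this went with a trend along transcript length. Over 9298 genes of at least 10 CPM, the deviation from the DMSO mean was compared between genes with annotated exons of at least 8129 bases and those of at most 2728 bases, the upper and lower 20% of lengths. The median log2 deviation of long genes minus that of short genes was 0.55 in EPZ011989 replicate 2 and -0.45 in replicate 4. In DMSO it ran from -0.26 in replicate 5 to 0.23 in replicate 1. All members but Insm1 and Nkx2-2 were highest in replicate 2 and lowest in replicate 4 among the treated libraries, with the widest swings in Rfx3, St18, Rfx6 and Myt1. The ratios between members of unlike length were exposed to the trend too, as with Rfx6 (4010 exonic bases) over Rfx3 (11034) and Isl1 (3959) over Pax6 (11694). Within DMSO, Rfx6 over Rfx3 was lowest in replicate 1 (2.81) and highest in replicate 5 (5.21), the 2 ends of the DMSO trend. The part of this trend in the results was not tested beyond the fits given here.

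For example, Rfx3, with 11034 exonic bases, deviated from its group mean by 0.73 in EPZ011989 replicate 2, -0.60 in replicate 4, 0.44 in DMSO replicate 1 and -0.52 in DMSO replicate 5 on the log2 scale. Nkx2-2, with 2875, deviated by -0.19 in EPZ011989 replicate 2 and 0.07 in replicate 4. Neurod1, the shortest at 2729, went the way of the long members (0.17 and -0.27). With each library's length trend removed, a fit chosen after seeing the data, Rfx6 was at -1.32 (adjusted p = 1.38e-04), Isl1 at 0.28 (adjusted p = 0.00249) and Nkx2-2 at 0.19 (adjusted p = 0.0335) by edgeR. In that edgeR fit Myt1 passed as higher (0.30, adjusted p = 0.0240) and Pax6 as lower (-0.22, adjusted p = 0.0274), while Rfx3 (0.39, adjusted p = 0.106) and St18 (0.50, adjusted p = 0.0531) did not pass.

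**Figure D4:**
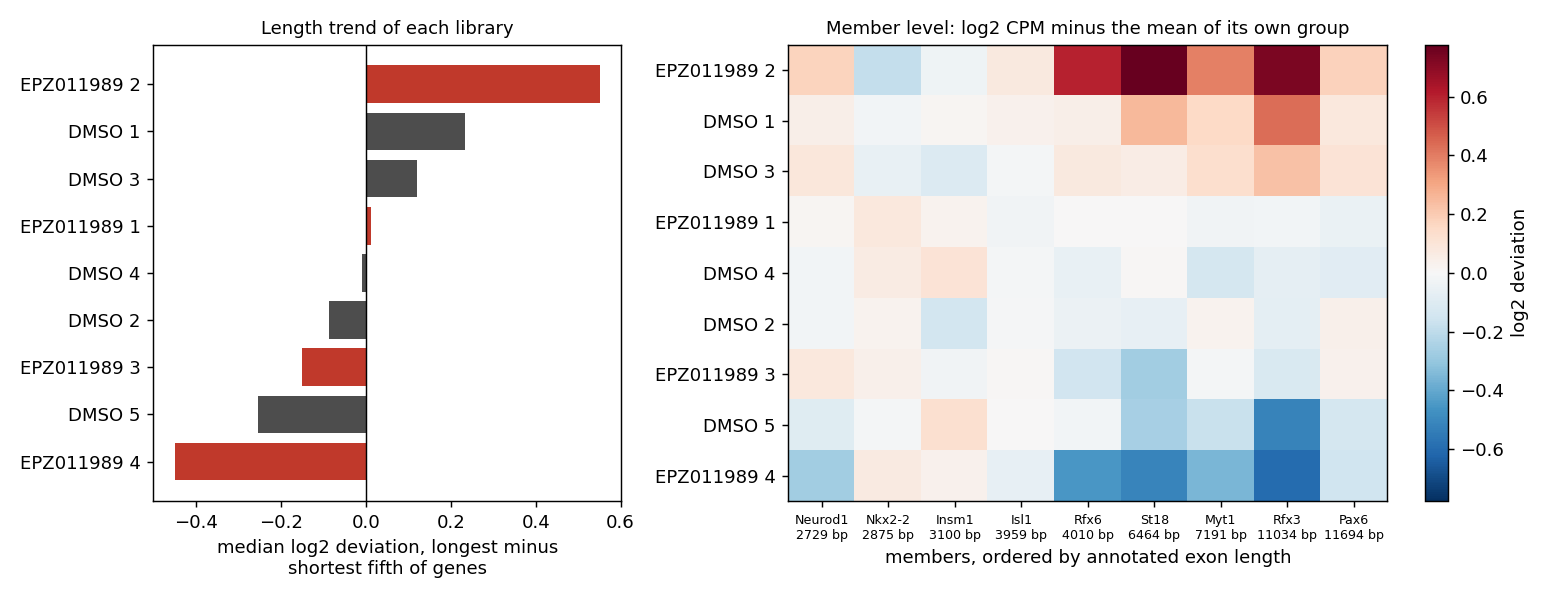
Left, median log2 deviation of the longest minus the shortest genes (upper and lower 20% of lengths) in each library (grey DMSO, red EPZ011989). Right, log2 CPM of each member minus the mean of its own group, members ordered by exon length; EPZ011989 replicate 2 is high and replicate 4 low for Rfx6, St18, Myt1, Rfx3 and Pax6.

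Levels of different genes were compared as CPM per 1000 annotated exonic bases (CPM per kb). This understates a gene with many alternative exons, such as Pax6 with 26 annotated transcripts. In DMSO the order was Isl1 (120 ± 2 CPM per kb, SD, n = 5), Neurod1 (56.8 ± 2.8), Nkx2-2 (53.5 ± 1.8), Myt1 (11.1 ± 1.2), Rfx6 (11.03 ± 0.44), St18 (9.46 ± 1.21), Pax6 (8.93 ± 0.65), Insm1 (5.08 ± 0.42) and Rfx3 (1.12 ± 0.27). Isl1 was above 97.6% of tested genes and Rfx3 above 28.2%. Neurod1 and Nkx2-2 overlapped each other, as did each neighbouring pair from Myt1 to Pax6, while Isl1, Insm1 and Rfx3 were apart from their neighbours. With EPZ011989 Rfx6, at 4.50 ± 1.46 CPM per kb (SD, n = 4), went from rank 5 to rank 8, overlapping Insm1 (4.63 ± 0.10), and from above 67.8% to above 46.6% of tested genes. Nkx2-2 (62.4 ± 5.2) was at rank 2 and Neurod1 (55.7 ± 7.0) at rank 3, with overlapping ranges.

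For each member, the genes with the most similar profile were taken as those of highest Pearson correlation of log2 CPM over the 9 libraries, among 8941 named genes of at least 10 CPM. These values are descriptions, since the 2 treatment groups and the length trend are shared by many genes. For Rfx6 they were Hapln1 (r = 0.996), a linker of hyaluronan matrix that went from 122 ± 4 to 67.4 ± 16.8 CPM, Ndufs1 (0.995), a subunit of respiratory complex I, and Trnt1 (0.994), which adds CCA to transfer RNAs. For Isl1 they were Armcx3, Rap2a and Abcg2 (r = 0.993 to 0.996), all called higher. For Nkx2-2 they were Ap2a2, Ywhaz and Zfp703 (r = 0.990 to 0.992). For Rfx3 they were Cnst, Pde4b and Tcf20 (r = 0.989 to 0.991), none called, with annotated exons of 8245 to 10560 bases. Insm1 had the weakest likeness, with a highest r of 0.932 (Tuft1).

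Among the nearest coding genes, some were called and others were not. Rcn1, a calcium-binding protein gene 269581 bases from Pax6, rose from 0.050 ± 0.052 to 2.19 ± 0.43 CPM (adjusted p = 1.29e-04 by edgeR; log2 difference 5.36, SE 0.63), while Elp4, on the other side and 3663 bases away, did not pass (-0.12). Next to Isl1, Itga1 rose (1.35 ± 0.49 to 4.04 ± 1.74 CPM), at a distance of 1196317 bases, and Parp8 did not pass. Next to Neurod1, the integrin gene Itga4 rose (1.98 to 3.66 CPM, log2 difference 0.88, SE 0.29, adjusted p = 0.0448 by edgeR) and Itprid2 did not pass. Cerkl, whose exons share 201 bases with Neurod1 on the same strand, was at 2.74 ± 0.30 and 2.34 ± 0.42 CPM and did not pass. Cfap61, 6882 bases from Insm1, fell from 25.9 ± 3.4 to 16.5 ± 1.4 CPM, and Ralgapa2, on the other side of Insm1, did not pass. Pum3, 331896 bases from Rfx3, fell from 83.8 ± 6.0 to 65.0 ± 4.4 CPM. Glis3, closer to Rfx3 at 247685 bases on the other side, did not pass. The neighbours of Rfx6 were low, with Gprc6a at 0.542 ± 0.314 and 0.191 ± 0.056 CPM (adjusted p = 0.0893) and Vgll2 at 0 in every DMSO library.

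Among relatives of the members, several neuronal and LIM homeodomain genes rose. Of 32 genes of the PAX, NEUROD/NEUROG, LIM homeodomain, NKX2, RFX, INSM and MYT families outside the 9, 15 passed the filter, of which 7 were called higher and 0 lower (16.2% and 7.96% over all tested genes), with a median log2 fold change of 0.76, beside 0.03 over all genes. Those near 0 in DMSO could be tested only because treated libraries had counts, which favours rises in this count. With a minimum of 1 CPM in 4 libraries, 5 of 12 were higher, beside 1932 of all 12197 genes tested in that fit. Neurod6, a neuronal relative of Neurod1, rose from 0.516 ± 0.288 to 5.70 ± 0.60 CPM (adjusted p = 5.16e-05 by edgeR; log2 difference 3.45, SE 0.36). Neurod2 rose from 6.20 ± 0.59 to 12.2 ± 1.6 CPM, and the proneural gene Neurog2 from 0.560 ± 0.346 to 4.31 ± 0.87 CPM. The LIM homeodomain genes Lhx2 (0.049 ± 0.067 to 1.12 ± 0.14 CPM) and Lhx4 (0.612 ± 0.234 to 3.91 ± 0.24 CPM) rose as well, and Nkx2-5 rose from a higher level (23.6 ± 4.6 to 39.97 ± 11.11 CPM). Other low relatives did not pass, such as Pax2 (2.02 and 1.98 CPM), or were too low to be tested. No other RFX gene that was tested passed: Rfx1 was at 31.9 ± 3.2 and 31.8 ± 1.0 CPM, Rfx2 at 13.6 ± 0.9 and 14.4 ± 1.2 CPM, Rfx5 at 24.0 ± 2.5 and 21.9 ± 4.4 CPM and Rfx7 at 29.4 ± 3.1 and 26.6 ± 9.1 CPM. Myt1l, the remaining MYT gene, was at 55.3 ± 8.5 and 54.4 ± 17.4 CPM and did not pass.

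Of 30 genes of proteins that work with the members, 27 passed the filter, 8 were called higher and 0 lower (16.2% and 7.96% over all tested genes), with a median log2 fold change of 0.08. Without EPZ011989 replicate 2 the count was 12 higher and 2 lower, beside 2939 and 2377 of all 14927 genes tested in that fit. Tle1 to Tle4, the 4 genes of the TLE corepressors that NKX2-2 recruits on this list, were among the 8 called higher. Tle4 went from 3.16 ± 0.32 to 6.70 ± 0.55 CPM (adjusted p = 7.96e-05 by edgeR; log2 difference 1.09, SE 0.12), Tle1 from 57.4 ± 4.1 to 78.7 ± 2.5 CPM, Tle3 from 67.0 ± 4.7 to 89.6 ± 5.4 CPM and Tle2 from 26.7 ± 3.8 to 34.7 ± 4.6 CPM (adjusted p = 0.0475). Rcor2, a CoREST subunit, rose from 18.1 ± 1.5 to 27.2 ± 4.3 CPM, and Lmo4, which like ISL1 binds LDB1, from 51.0 ± 2.4 to 70.0 ± 9.5 CPM. Id4, an inhibitor of basic helix-loop-helix factors, rose from 0.367 ± 0.194 to 2.36 ± 0.40 CPM. The corepressor genes Rcor1, Rcor3, Kdm1a, Hdac1, Hdac2, Hdac3, Sin3a and Sin3b of the same list did not pass. The NEUROD1 dimer partners Tcf3, Tcf4 and Tcf12 did not pass, with Tcf3 at 113 ± 7 and 120 ± 5 CPM. Rest, the repressor of neuronal genes in other cell types, had 4 counts in DMSO replicate 3 and 0 in the other libraries.

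Genes reported as targets of the members in islets moved both ways. Of 29 such genes 20 passed the filter, 8 were called higher and 3 lower (16.2% and 7.96% over all tested genes), with a median log2 fold change of 0.21. Here too genes at or near 0 in DMSO, such as Sst and Iapp, entered through the treated libraries. With a minimum of 1 CPM in 4 libraries 5 of 14 were higher and 3 lower, beside 1932 and 1166 of all 12197 genes. Without EPZ011989 replicate 2, 8 were higher and 5 lower, beside 2939 and 2377 of all 14927 genes tested in that fit. Mlxipl, the glucose-responsive factor ChREBP, rose from 0.524 ± 0.258 to 2.13 ± 0.43 CPM (adjusted p = 0.00212 by edgeR). Ins2 and Sst were also called higher, from 0.653 ± 0.243 to 4.85 ± 1.46 CPM and from 0 in every DMSO library to 0.866 ± 0.314 CPM. Of genes tied to RFX6, the channel subunit genes Abcc8 (270 ± 3 and 287 ± 22 CPM) and Cacna1c (159 ± 19 and 122 ± 35 CPM, adjusted p = 0.126) did not pass, while Cacna1a rose from 0.508 ± 0.201 to 1.26 ± 0.37 CPM. The 3 that fell were the zinc transporter Slc30a8 (298 ± 13 to 192 ± 42 CPM), the potassium channel subunit Kcnj11 (55.9 ± 3.4 to 45.7 ± 2.1 CPM) and the glucose-6-phosphatase G6pc2 (20.5 ± 1.6 to 16.9 ± 1.5 CPM, adjusted p = 0.0454).

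Of 35 ciliary genes, known targets of RFX3 and its relatives, 33 were found by symbol among the counts, and all 33 passed the filter. Of these, 1 was called higher and 4 lower (16.2% and 7.96% over all tested genes), with a median log2 fold change of -0.02. Without EPZ011989 replicate 2, 2 were higher and 10 lower, beside 2939 and 2377 of all 14927 genes tested in that fit. Foxj1, the regulator of motile cilia, rose from 1.33 ± 0.13 to 2.23 ± 0.60 CPM. The 4 that fell were Bbs5 (8.09 ± 0.68 to 5.56 ± 0.94 CPM) and Bbs7 (25.4 ± 1.5 to 20.8 ± 2.0 CPM) of the BBSome, the transport subunit gene Ift57 (54.4 ± 1.5 to 43.5 ± 4.7 CPM) and Tulp3, an adaptor for ciliary cargo (111 ± 1 to 93.1 ± 7.9 CPM). The counts also depended on scaling, with 4 higher and 2 lower under upper-quartile factors and 3 and 3 with library size alone. Over all 14754 genes these fits gave 2735 higher and 776 lower, and 2685 higher and 865 lower.

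**Figure D5:**
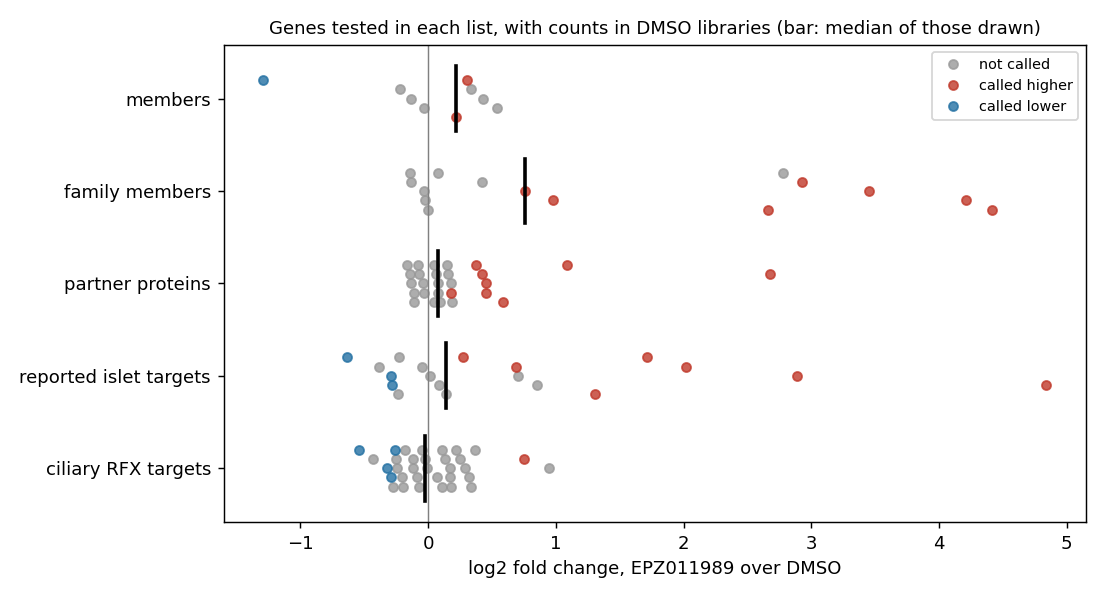
Log2 fold change of EPZ011989 over DMSO (horizontal axis) for each tested gene of the 9 members and the 4 related lists, red where called higher, blue where called lower and grey otherwise, with a bar at the median of the genes drawn. Sst, at 0 in every DMSO library, is not drawn; the rises of the family members reach 4.41, while the median of the ciliary genes is -0.02.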

How the data were processed

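Libraries were made from poly-A RNA for Illumina sequencing, per the labels' protocols. The authors deposited whole-number gene counts, and a second table of scaled values (signal). In each library the matched signal values equalled the deposited count divided by 1 factor (100% of values within a relative tolerance of 1e-04, 20590 rows matched by symbol). Per the submitters' processing notes, HISAT2, StringTie, DESeq2 and build mm10 were used; the sources used here do not give their versions or whether counting used strand.

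The counts were filtered with filterByExpr (14754 genes kept), scaled with TMM factors and tested with edgeR 4.0.16 (quasi-likelihood F test, robust, treatment only) in R 4.3.3. Each SE was taken from the log2 fold change and its F statistic, and intervals use the t distribution of that fit. Counts of 4 (3046 values) and 5 (2732) were more frequent than 2 (2108) or 3 (2160), though not than 1 (3970), so counts cannot be taken as independent reads. A gene at 0 has a floor of 12 counts per library, covering counting error only. Positions and exon lengths come from GENCODE M21 (GRCm38), and start windows from RefSeq. Ratios were tested by exact permutation. No batch is given in the labels.

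Members and lists were chosen with earlier results of these data known. The text names all members, up to 5 called genes per list by smallest p, further list genes tied to a member, up to 3 genes of most similar profile, and overlapping or neighbouring genes. Myt1l, Nkx2-5, Pax2, Rest, the corepressor genes that did not pass, Rfx1, Rfx2, Rfx5, Rfx7 and the rest of the called TLE and target genes were named after their values were seen. Some genes of the lists are counted but not reported here by name.

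Alternatives were DESeq2 1.42.0, limma-voom 3.58.1, factors by RLE or upper quartile or none, tests without a filter or with a minimum of 1 CPM in 4 libraries, limma on log2(signal + 1), counts divided by 4, the replicate number as a block, each library left out, and EPZ011989 replicates 2 and 4 left out. Removal of the length trend was chosen after seeing the data.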

Additional observations from a re-analysis of the deposited data

How the results depend on the processing

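Rfx6 stayed called as lower in all 21 alternative fits (-1.54 to -1.18), and Isl1 as higher in 20. Nkx2-2 lost its call in 13, among them RLE factors, no filter, the signal table and counts divided by 4, in each of which 1 member was higher; the cause was not tested. With DESeq2, the length trend removed or EPZ011989 replicates 2 and 4 left out, 2 members were lower, Pax6 being added. Leaving out single libraries gave 1 to 3 members higher and 1 to 2 lower. Neurod1 turned sign with upper-quartile factors (0.022), library size alone (0.018) and without EPZ011989 replicates 2 and 4 (0.010), and ranged from -0.096 to 0.032 with single libraries left out, the latter without EPZ011989 replicate 4. Over all genes, 776 were lower with upper-quartile factors, 1859 with the length trend removed, and 781 to 2377 with single libraries left out (2377 without EPZ011989 replicate 2, 781 without replicate 3).

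The labels do not say whether libraries of the same replicate number form pairs. Deviations of same-numbered libraries correlated at 0.04, -0.21, -0.20 and 0.08 across genes, and no treated library matched its own number best. These correlations cannot settle pairing, because the length trend of each library is part of the deviations. With the replicate block 1550 genes were higher and 471 lower, 0 members were higher and 1 lower, and Isl1 had an adjusted p of 0.0502. In pairs by number, Rfx6 over Rfx3 differed by -1.61 and Isl1 over Pax6 by 0.56 (both adjusted p = 0.25, where 4 pairs allow no p under 0.125).

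With a library left out, Rfx6 over Rfx3 ranged from -1.83 to -1.61, Isl1 over Pax6 from 0.49 to 0.56, Nkx2-2 over Neurod1 from 0.14 to 0.37 and Myt1 over St18 from -0.23 to -0.021. Without 1 EPZ011989 library the first 2 kept an adjusted p of 0.0238 to 0.0357, and without 1 DMSO library it was 0.0571. Without replicates 2 and 4 the first 2 were -1.74 and 0.53 (adjusted p = 0.0635). Exact tests of 4 against 4 libraries cannot go below p = 0.0286, and of 5 against 2 not below 0.0476, so the adjusted values without a DMSO library, or without replicates 2 and 4, say nothing on stability. The list counts over the alternatives ran from 5 to 9 higher and 0 to 1 lower for family members, 6 to 12 and 0 to 2 for partners, 5 to 8 and 1 to 5 for reported targets, and 0 to 4 and 0 to 10 for ciliary genes. Over all genes the same alternatives ran from 1550 to 2939 higher and from 471 to 2377 lower.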
